A study of Mus musculus with 2 samples.

Results

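The genes described here are 34 genes that give thymocytes, the developing T cells of the thymus, their identity and carry signals from the T cell receptor (TCR). They were chosen by name and were found in the deposited count table through the RefSeq identifiers of their transcripts. All 34 were present, with 62 transcripts among the 29352 that have a gene symbol, and each gene was represented by its transcript with the highest read total. They are 34 of 23003 genes treated in this way. The RNA was that of mTEChi, medullary epithelial cells with high levels of MHC class II that present self antigens in the thymus. The Clp1 knockdown library came from GFP-positive cells and the Ctr library from GFP-negative cells of the same thymus, each sorted as CD45-negative, MHC class II high and Ly51 low or intermediate after bead depletion of CD45-positive cells. Both came from 1 lentigenic B6 mouse, which carried 3 shRNAs against Clp1 and the ZsGreen reporter behind the doxycycline-inducible TRE3G promoter, and the TetOn3G transactivator behind the EF1 promoter. This mouse was given doxycycline in its food (2 g/kg) for 2 weeks from 3 weeks of age, so the Ctr cells had the same treatment. They were sorted for lacking the reporter, which the study uses to mark knockdown activity. Hairpin expression itself is not given for either library. A single founder animal of this kind has its own integration sites, and the GFP-negative cells are a second fraction of its thymus and not a wild-type control.

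Thymocytes build the TCR in steps. The RAG recombinase cuts the receptor gene segments, terminal transferase adds bases at the joints, and the first rearranged chain pairs with a surrogate partner before the complete receptor reaches the surface with the CD3 chains. The coreceptors CD4 and CD8 bring the kinase LCK to the receptor, and LCK and ZAP70 then phosphorylate adaptors that build the signalling complex. Thymic epithelial cells present self peptides to thymocytes and select them through this machinery.

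Reads were counted within the exons of each transcript and divided by size factors of 1.14 for the Clp1 knockdown library and 0.877 for Ctr, with 37524730 counted reads in Clp1 knockdown and 28464803 in Ctr. Ratios are given as log2 of Clp1 knockdown over Ctr after this scaling, with 95% intervals by the exact Clopper-Pearson method. There was 1 library per group, so no difference below has a replicate check and no p-value is given. The intervals cover counting error only, since copies made by PCR were not told apart by molecular identifiers. A gene was called 2-fold lower or higher when it had at least 50 reads over both libraries, its ratio passed 2-fold and its interval left out 0. Clp1, the kinase of the 3' end processing complex that the hairpins target, had 812 reads in the Clp1 knockdown library and 1573 in Ctr, a log2 ratio of -1.33 (-1.46 to -1.21). The medullary epithelial genes Aire, with 8264 reads in Clp1 knockdown and 7462 in Ctr, and Krt5, with 25255 in Clp1 knockdown and 8922 in Ctr, which mark the labelled cell type, were covered by many reads in both libraries.

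Some of these genes lie side by side, and their start regions are shown because those neighbours are compared below. In the mm9 build, Cd3g (44777655 to 44788514, minus strand), Cd3d (44789876 to 44795135, plus strand) and Cd3e (44806826 to 44817673, minus strand) follow each other on chromosome 9, and Cd3g and Cd3d point away from each other. Rag1 (101478439 to 101489658, minus strand) and Rag2 (101464875 to 101472685, plus strand) face each other on chromosome 2. The sequences are from RefSeq in the GRCm38.p6 build and run from 250 bases before to 50 bases after a transcript start, 5' to 3'. Capitals mark matches to 4 motifs, or to their reverse complement. The letters TGTGGT are bound by Runx factors. The letters AGGAAG are bound by Ets factors such as ETS1. The letters CTTTGA are bound by TCF-1 and LEF1. The letters AGATAA are bound by Gata factors. For Lck, the more upstream of its starts is shown. The windows are chr2:101649483-101649782 for Rag1 (minus), chr9:45009562-45009861 for Cd3e (minus), chr9:44981536-44981835 for Cd3d (plus), chr9:44980382-44980681 for Cd3g (minus) and chr4:129573592-129573891 for Lck (minus), with the strand in brackets.
Rag1: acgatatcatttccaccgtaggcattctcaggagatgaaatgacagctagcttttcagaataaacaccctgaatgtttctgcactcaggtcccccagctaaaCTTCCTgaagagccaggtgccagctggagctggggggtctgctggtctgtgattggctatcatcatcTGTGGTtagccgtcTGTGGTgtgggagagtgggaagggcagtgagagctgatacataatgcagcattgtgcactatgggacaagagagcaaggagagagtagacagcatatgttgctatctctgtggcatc
Cd3e: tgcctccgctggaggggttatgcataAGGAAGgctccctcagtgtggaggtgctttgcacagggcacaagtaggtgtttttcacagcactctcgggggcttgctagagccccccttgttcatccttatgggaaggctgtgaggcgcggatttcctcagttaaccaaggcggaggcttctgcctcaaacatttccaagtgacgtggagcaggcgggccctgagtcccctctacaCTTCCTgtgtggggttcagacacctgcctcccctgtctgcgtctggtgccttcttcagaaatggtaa
Cd3d: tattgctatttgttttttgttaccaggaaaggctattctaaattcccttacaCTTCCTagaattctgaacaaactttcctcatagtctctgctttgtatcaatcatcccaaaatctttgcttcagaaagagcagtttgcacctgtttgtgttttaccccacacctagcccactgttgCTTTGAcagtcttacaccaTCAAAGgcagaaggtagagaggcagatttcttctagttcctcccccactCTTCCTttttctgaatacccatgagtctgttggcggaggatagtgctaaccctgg
Cd3g: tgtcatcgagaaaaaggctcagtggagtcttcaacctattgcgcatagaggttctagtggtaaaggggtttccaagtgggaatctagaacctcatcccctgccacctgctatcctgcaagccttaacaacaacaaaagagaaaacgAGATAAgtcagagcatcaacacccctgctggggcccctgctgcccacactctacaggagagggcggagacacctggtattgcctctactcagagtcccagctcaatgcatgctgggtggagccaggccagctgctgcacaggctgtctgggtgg
Lck: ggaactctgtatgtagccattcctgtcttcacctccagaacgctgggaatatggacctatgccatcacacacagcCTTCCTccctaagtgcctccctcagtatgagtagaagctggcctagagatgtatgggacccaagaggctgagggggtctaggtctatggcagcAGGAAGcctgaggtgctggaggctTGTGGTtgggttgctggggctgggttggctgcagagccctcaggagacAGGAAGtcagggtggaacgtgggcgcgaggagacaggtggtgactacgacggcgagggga
The Rag1 window held 2 Runx matches and 1 Ets match, and that of Lck held 1 Runx and 3 Ets matches. The Cd3d window held 2 Ets and 2 Tcf/Lef matches and the Cd3e window 2 Ets matches, whereas the adjoining Cd3g window held neither and had 1 Gata match. The RefSeq table used here had 47 windows for 25 of the 34 genes, and windows of 1 gene can overlap, as those of Arpp21 do. The Ets letters were in 46.8% of these windows and in 35.4% of all 32851 windows. The Tcf/Lef letters were in 13 of the 47 and 5257 of all windows, the Runx letters in 8 and 5506, and the Gata letters in 12.8% and 11.2%. The E-box CANNTG, bound by E proteins such as those of Tcf12, was in 89.4% of the windows of the 34 genes and 72.3% of all windows. A match is a stretch of letters and not a shown binding site. No matches to the Ets, Runx, Tcf/Lef or Gata letters stood in the window of Rag2.

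The 34 genes were lower in the Clp1 knockdown library almost as a body. All 34 had at least 50 reads, and 27 of them were called 2-fold lower, against 18.6% of all 16453 genes with at least 50 reads. None was called 2-fold higher, against 19.0% of all genes, and the other 7 passed neither threshold. The log2 ratio was below 0 for 33 genes, against 8194 of all 16453. Each of the 33 had an interval wholly below 0, which was not counted over all genes. Only Cd4 had an interval that held 0. The median ratio was -1.64, with quartiles of -2.27 and -1.08, where the median of all genes was 0.00489. Summed over the 34 genes, 23270 reads were counted in Clp1 knockdown and 52919 in Ctr, which is 872 RPM in Clp1 knockdown and 2633 RPM in Ctr (RPM, reads per 1000000 counted over 1 transcript per gene). The summed level in Clp1 knockdown was 33.8% of that in Ctr. In bulk RNA, fewer thymocytes among the sorted cells and less of these RNAs per cell cannot be told apart.

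**Figure D1:**
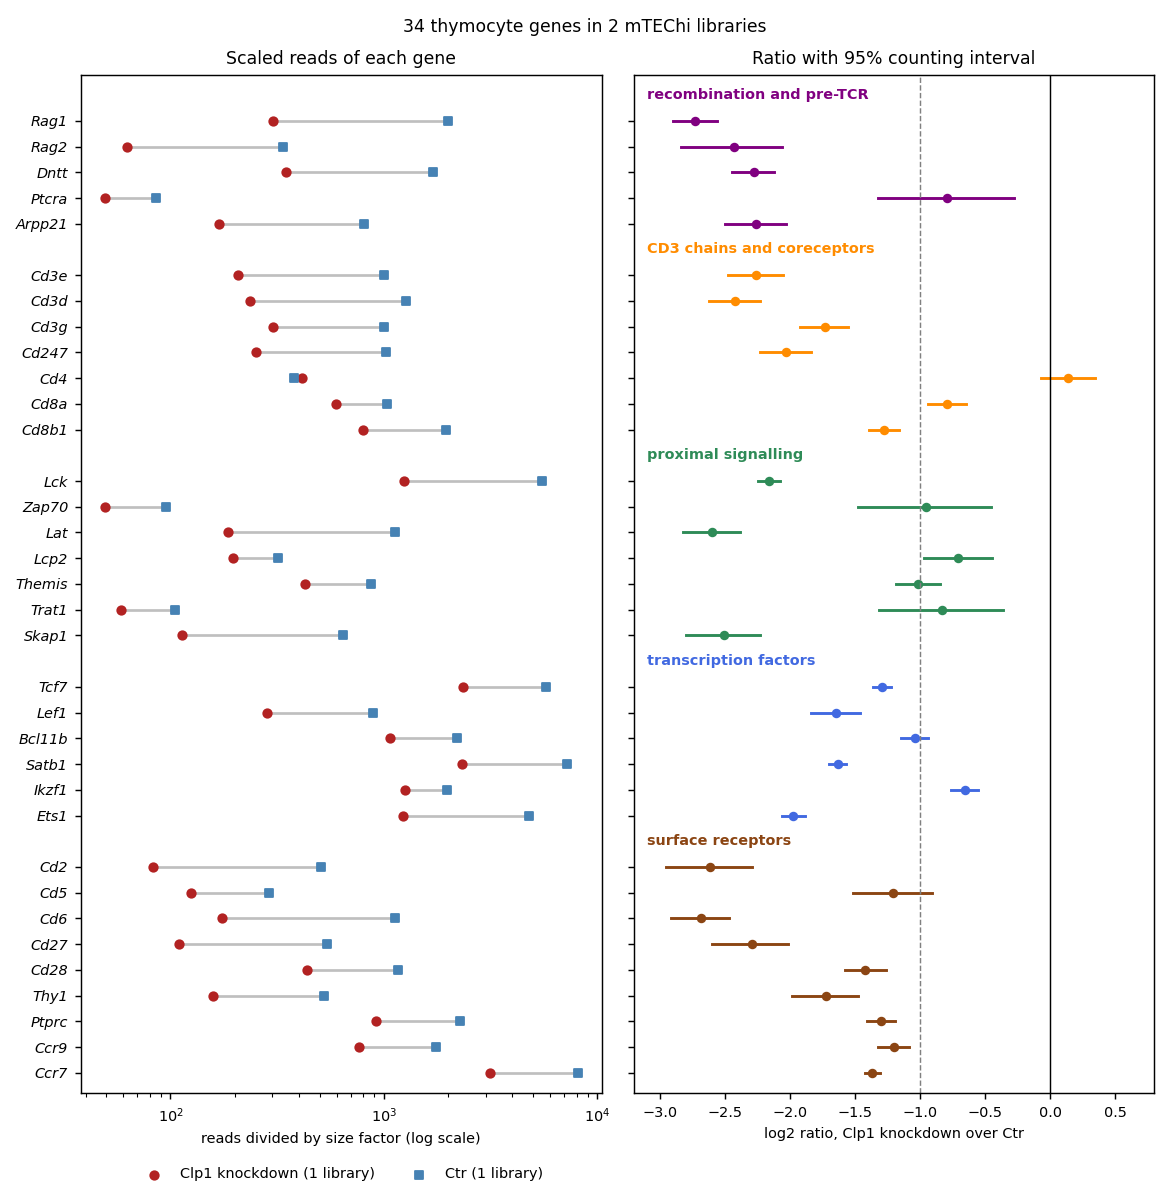
Reads of each of the 34 genes divided by the size factor on a log axis (left; red circles, Clp1 knockdown; blue squares, Ctr; 1 library each) and the log2 ratio with its 95% counting interval (right; the dashed line marks 2-fold lower), grouped by role. Ratios run from -2.73 for Rag1 to 0.14 for Cd4, and Cd4 is the gene whose Clp1 knockdown value lies above its Ctr value.

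The ratios of the 34 genes were spread by more than counting error. The intervals of 30 of the 34 genes left out the median of -1.64, 16 of them above it and 14 below. Noise beyond counting was not measured with 1 library per group, so this does not show that the genes truly differed. The share of all genes whose intervals leave out their own median was not counted. The ratios had a standard deviation of 0.727 across the 34 genes, below the 2.04 across all genes. There were 13 genes with a ratio below -2. Per kb of transcript, the scaled level ranged from 18.4 reads for Rag2 to 1591 for Ccr7 in Clp1 knockdown, and from 43.9 for Zap70 to 4107 for Ccr7 in Ctr. The spread between the highest and the lowest gene was 86.7-fold in Clp1 knockdown and 93.5-fold in Ctr.

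**Figure D2:**
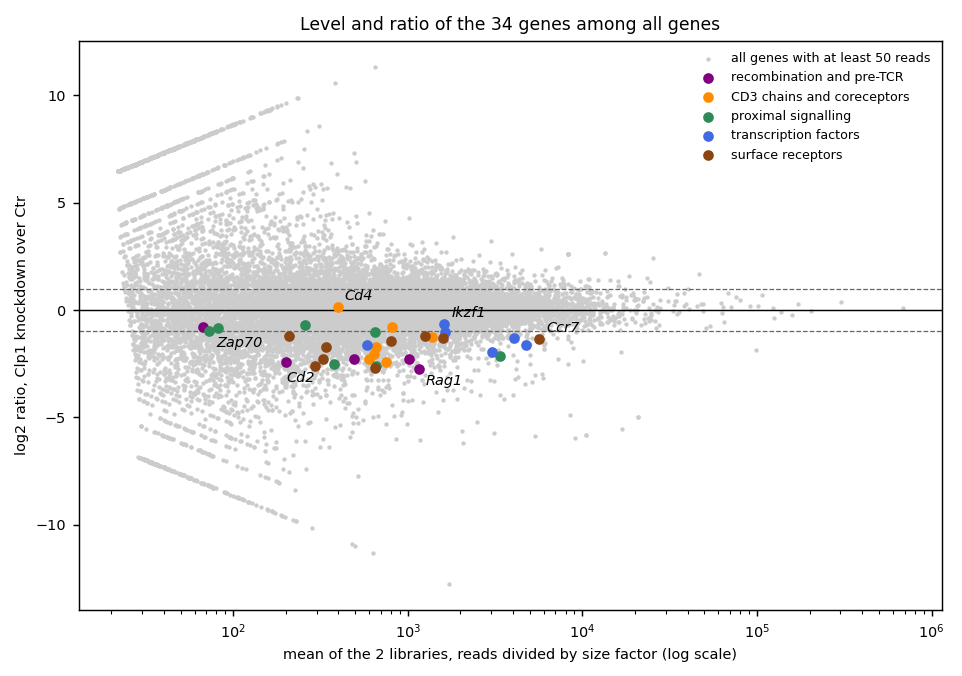
Log2 ratio of Clp1 knockdown over Ctr against the mean scaled reads of both libraries (log axis) for all 16453 genes with at least 50 reads (grey) and the 34 genes in the colours of their roles, with dashed lines at 2-fold. All of the 34 genes but Cd4 lie below 0, and all lie inside the cloud of all genes.

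The recombination and pre-TCR genes had the lowest ratios as a group, with a median of -2.28. Of the 5 genes 4 were called lower, against 18.6% of all genes. Rag1, the subunit of the recombinase that cuts DNA, had 345 reads in Clp1 knockdown and 1760 in Ctr, the lowest ratio of the 34 at -2.73 (-2.90 to -2.56), or 15.1% of the Ctr level. Rag2, its partner subunit, had 71 reads in Clp1 knockdown and 296 in Ctr, a ratio of -2.43 (-2.83 to -2.06). The intervals of both subunits overlapped. Dntt, the terminal transferase that adds bases at the joints, had 398 reads in Clp1 knockdown and 1486 in Ctr (-2.28, -2.44 to -2.12). Arpp21, a phosphoprotein with abundant RNA in immature thymocytes, had 192 in Clp1 knockdown and 709 in Ctr (-2.26, -2.50 to -2.03). Ptcra was the exception in this group. It encodes the surrogate alpha chain of the pre-TCR and had 56 reads in Clp1 knockdown and 75 in Ctr, a ratio of -0.79 (-1.33 to -0.28) that was not called. Its interval lay above those of the other 4 genes. Summed over the 5 genes, the level was 18.9% of that in Ctr.

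The CD3 chains, which couple the receptor to the kinases, were all called lower, against 18.6% of all genes. Cd3d had 270 reads in Clp1 knockdown and 1113 in Ctr (-2.42, -2.62 to -2.23). Cd3e had 237 in Clp1 knockdown and 874 in Ctr (-2.26, -2.47 to -2.05), and the intervals of these neighbours overlapped. Cd3g, which starts close to Cd3d on the other strand, had 344 reads in Clp1 knockdown and 881 in Ctr, and its ratio of -1.73 (-1.92 to -1.55) had an interval above those of Cd3d and Cd3e. Cd247, the zeta chain with the most phosphorylation motifs, had 286 reads in Clp1 knockdown and 901 in Ctr (-2.03, -2.23 to -1.84). The 4 chains, which assemble in fixed proportion in the receptor, stood at between 18.7% (Cd3d) and 30.04% (Cd3g) of their Ctr level.

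The coreceptors had higher ratios than the CD3 chains. Cd8b1, the beta chain of CD8, had 914 reads in Clp1 knockdown and 1705 in Ctr, a ratio of -1.28 (-1.40 to -1.16), and was called lower. Cd8a, the alpha chain, had 680 reads in Clp1 knockdown and 906 in Ctr, and its ratio of -0.79 (-0.94 to -0.65) was not called. Cd4, the coreceptor for MHC class II, had 473 reads in Clp1 knockdown and 331 in Ctr, at 0.14 (-0.07 to 0.34). The intervals of the 3 coreceptor genes did not overlap each other, and each lay above those of all 4 CD3 chains. Per kb, Cd4 had 134 scaled reads in Clp1 knockdown and 122 in Ctr, while Cd8b1 had 566 in Clp1 knockdown and 1373 in Ctr. CD4 and the CD8 alpha chain are also made by some dendritic cells and other leukocytes, whose markers are given below.

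Of the 7 proximal signalling genes 4 were called lower, against 18.6% of all genes, with a median of -1.01. Lck, the kinase that CD4 and CD8 carry, was the most abundant of them per kb, with 1410 reads in Clp1 knockdown and 4841 in Ctr (-2.16, -2.24 to -2.07). Lat, the membrane adaptor that ZAP70 phosphorylates, had 213 in Clp1 knockdown and 992 in Ctr (-2.59, -2.82 to -2.38). Skap1, an adaptor that links the receptor to integrins, had 129 in Clp1 knockdown and 565 in Ctr (-2.50, -2.80 to -2.23). These 3 genes were at 16.5% to 22.4% of their Ctr level. Themis, which is needed for thymocyte selection, had 488 reads in Clp1 knockdown and 759 in Ctr, and with -1.01 (-1.18 to -0.85) it stood just inside the 2-fold threshold. The call ended with upper quartile scaling (-0.996) and after the trend with mean expression was subtracted (-0.95). Zap70, the kinase that docks on phosphorylated CD3 chains, had 56 reads in Clp1 knockdown and 84 in Ctr and with -0.96 (-1.48 to -0.46) stood just outside it. Trat1, a TCR-associated transmembrane adaptor, had 67 reads in Clp1 knockdown and 92 in Ctr (-0.83, -1.31 to -0.37), and was called lower at -1.38 after the trend with GC content was subtracted. Lcp2 encodes SLP-76, the cytosolic adaptor that joins LAT, and had 223 reads in Clp1 knockdown and 280 in Ctr (-0.71, -0.97 to -0.45). Zap70, Trat1 and Lcp2 were not called as counted, and the interval of Lcp2 lay far above that of Lat, with which its protein acts.

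Of the 6 transcription factors 5 were called lower, against 18.6% of all genes, with a median of -1.46. Ets1, a founding member of the Ets family, had 1395 reads in Clp1 knockdown and 4217 in Ctr, the lowest ratio of the 6 at -1.97 (-2.06 to -1.89). Satb1, a chromatin organizer abundant in thymocytes, had 2638 in Clp1 knockdown and 6289 in Ctr (-1.63, -1.70 to -1.57). Lef1 had 322 in Clp1 knockdown and 776 in Ctr (-1.65, -1.84 to -1.46), and its relative Tcf7, which encodes TCF-1, had 2675 in Clp1 knockdown and 5043 in Ctr (-1.29, -1.36 to -1.23). LEF1 and TCF-1 bind the same letters, and the intervals of their ratios did not overlap. Bcl11b, which fixes the T cell fate, had 1221 reads in Clp1 knockdown and 1934 in Ctr (-1.04, -1.15 to -0.94). Ikzf1, the Ikaros factor that is shared by lymphoid and other blood lineages, had 1426 in Clp1 knockdown and 1729 in Ctr, and its ratio of -0.66 (-0.76 to -0.55) was not called. No transcription factor was as low in ratio as Rag1, Rag2, Dntt, Cd3d or Lat, and the intervals of all 6 lay above those of these genes except that Ets1 and Rag2 touched.

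All 9 surface receptors were called lower, against 18.6% of all genes, over a wide range of ratios. Cd6 and Cd2 were the lowest. Cd6, a scavenger receptor that tunes TCR signals, had 199 reads in Clp1 knockdown and 986 in Ctr (-2.68, -2.91 to -2.47). Cd2, an adhesion and costimulatory receptor, had 94 in Clp1 knockdown and 444 in Ctr (-2.61, -2.96 to -2.29). Cd5, the relative of Cd6 that lies next to it on chromosome 19, had 143 reads in Clp1 knockdown and 255 in Ctr, and its ratio of -1.21 (-1.52 to -0.91) had an interval well above that of Cd6. After the trend with GC content was subtracted its ratio was -0.90, which ends its call. Cd27, a receptor of the TNF receptor family, had 125 reads in Clp1 knockdown and 473 in Ctr (-2.29, -2.59 to -2.01). Thy1, the classical surface marker of mouse thymocytes, had 180 in Clp1 knockdown and 458 in Ctr (-1.72, -1.98 to -1.47). Cd28, the main costimulatory receptor, had 497 in Clp1 knockdown and 1024 in Ctr (-1.42, -1.58 to -1.27). Ptprc encodes CD45, on which the cells were depleted and gated out, and it still had 1050 reads in Clp1 knockdown and 1987 in Ctr (-1.30, -1.41 to -1.19). The chemokine receptors had overlapping intervals. Ccr7, which guides thymocytes into the medulla, had 3583 reads in Clp1 knockdown and 7114 in Ctr (-1.37, -1.43 to -1.31) and was the most abundant of the 34 genes per kb in both libraries, and Ccr9, which acts in homing to and within the cortex, had 870 in Clp1 knockdown and 1540 in Ctr (-1.20, -1.32 to -1.08).

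Several of the 34 genes are used by other cell types as well. For the 7 of wider expression (Ptprc, Thy1, Ets1, Satb1, Ikzf1, Lef1 and Cd4), the median ratio was -1.63. Of these 5 were called lower, against 18.6% of all genes. Each of the other 27 had a ratio below 0. For these 27, which still include genes that other leukocytes make, such as Cd8a, the median was -1.73 with 22 called lower. A shorter list of 11, meant to be more restricted to the T lineage, held Ptcra, Cd3e, Cd3d, Cd3g, Cd8b1, Lck, Lat, Themis, Trat1, Cd6 and Ccr9. Its median was -1.73 with 9 called lower, and its summed level was 190 RPM in Clp1 knockdown and 690 in Ctr. The part of other leukocytes in the reads of these 11 was not tested.

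The further genes of TCR signalling, 34 other kinases, adaptors, phosphatases and calcium and NFAT components, had a median of -1.17. Of these 18 were called lower and none higher, against 18.6% and 19.0% of all genes. Tespa1, which acts in thymocyte selection, had 14 reads in Clp1 knockdown and 260 in Ctr (-4.54, -5.48 to -3.82). Itpkb, an inositol trisphosphate kinase needed for positive selection, had 40 in Clp1 knockdown and 476 in Ctr (-3.93, -4.46 to -3.48). Both were lower in ratio than any of the 34 thymocyte genes. At the other end of this list, the phosphatase gene Ptpn22 had 2127 reads in Clp1 knockdown and 957 in Ctr (0.77, 0.66 to 0.89) and Bcl10, which links the receptor to NF-kB and acts in many cell types, had 9133 in Clp1 knockdown and 5069 in Ctr (0.47, 0.42 to 0.52).

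Genes of particular T cell stages did not all have ratios like those of the 34. Among all genes, 18.6% were called lower and 19.0% higher. The mature and regulatory T cell genes had a median of -2.19 over the 10 of 11 with 50 reads, with 7 called lower and none higher. S1pr1, the receptor by which mature thymocytes leave the thymus, had 913 reads in Clp1 knockdown and 6536 in Ctr (-3.22, -3.32 to -3.12), and its activator Klf2 had 2801 in Clp1 knockdown and 10487 in Ctr (-2.28, -2.34 to -2.22). Both genes are also abundant in endothelial cells, whose 8 markers were all called lower with a median of -3.61, and the part of these cells was not tested. Without this pair, a setting chosen after seeing the data, the other 8 genes with 50 reads had a median of -2.12 with 5 called lower. Ctla4, a brake on T cell activation and a regulatory T cell gene, had 243 reads in Clp1 knockdown and 105 in Ctr (0.83, 0.50 to 1.18) and was not called. The double positive and selection stage genes had a median of -0.05, with 1 of 11 called lower, which was the early activation marker Cd69 at 205 reads in Clp1 knockdown and 696 in Ctr (-2.14, -2.37 to -1.92). At the other end Cd1d1, which presents lipids and is found on epithelial cells too, had 1658 reads in Clp1 knockdown and 655 in Ctr (0.96, 0.83 to 1.09). The early thymocyte stage genes had a median of 0.22 over 9 genes, with 1 called lower and 2 higher, counts near those of all genes. Among these Notch3, a Notch receptor of immature thymocytes and also of mural cells, was called lower with 103 reads in Clp1 knockdown and 641 in Ctr (-3.01, -3.33 to -2.71). The fibroblast and mural list was called lower in 6 of 7 genes, with Pdgfrb, a mural cell receptor, at -2.22, and its part in the Notch3 ratio was not tested. Higher calls were those of Dtx1, a Notch target, with 161 reads in Clp1 knockdown and 5 in Ctr (4.51, 3.38 to 6.27), and of the cytokine receptor gene Il7r with 482 in Clp1 knockdown and 141 in Ctr (1.39, 1.12 to 1.68). Several genes of the early and double positive lists, such as Hes1 and Cd24a, are used by epithelial cells too.

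Markers of other cell types moved in the same comparison, in which 18.6% of all genes were called lower and 19.0% higher. The pan-leukocyte genes were called lower in 9 of 12 and higher in none, with a median of -1.41, and together held 1990 RPM in Clp1 knockdown and 3208 in Ctr. The dendritic cell and macrophage genes were lower in 7 of 12 and higher in 1, with a median of -1.32 and sums of 708 RPM in Clp1 knockdown and 624 in Ctr. The higher sum in Clp1 knockdown rests on the lysozyme gene Lyz2, with 15840 reads in Clp1 knockdown and 8041 in Ctr, and without it the sums were 115 RPM in Clp1 knockdown and 224 RPM in Ctr. Of the B cell genes 9 of 10 had 50 reads, of which 4 were lower and none higher (median -0.55; 124 RPM in Clp1 knockdown and 173 RPM in Ctr). Of the NK and cytotoxic genes 9 of 10 had 50 reads, of which 4 were lower and 3 higher (median -0.96; 82.7 RPM in Clp1 knockdown and 179 RPM in Ctr), and Ncr1, a defining NK receptor gene, was at 0 reads in Clp1 knockdown and 2 in Ctr. Outside the leukocytes, all 8 endothelial genes were lower (median -3.61; 97.5 RPM in Clp1 knockdown and 987 RPM in Ctr), as were 6 of 7 fibroblast and mural genes (median -2.29; 186 RPM in Clp1 knockdown and 673 RPM in Ctr) and 4 of 5 red cell genes, with 1 higher (median -4.97; 93.6 RPM in Clp1 knockdown and 2708 RPM in Ctr). None of the lists other than the NK list held a gene at 0 in either library. The 17 mTEC genes had none lower and 5 higher (median 0.39), and the 9 cTEC genes, which mark cortical epithelium, had 5 lower and none higher (median -1.33). The part of these other cells in the ratios of the 34 genes was not tested.

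**Figure D3:**
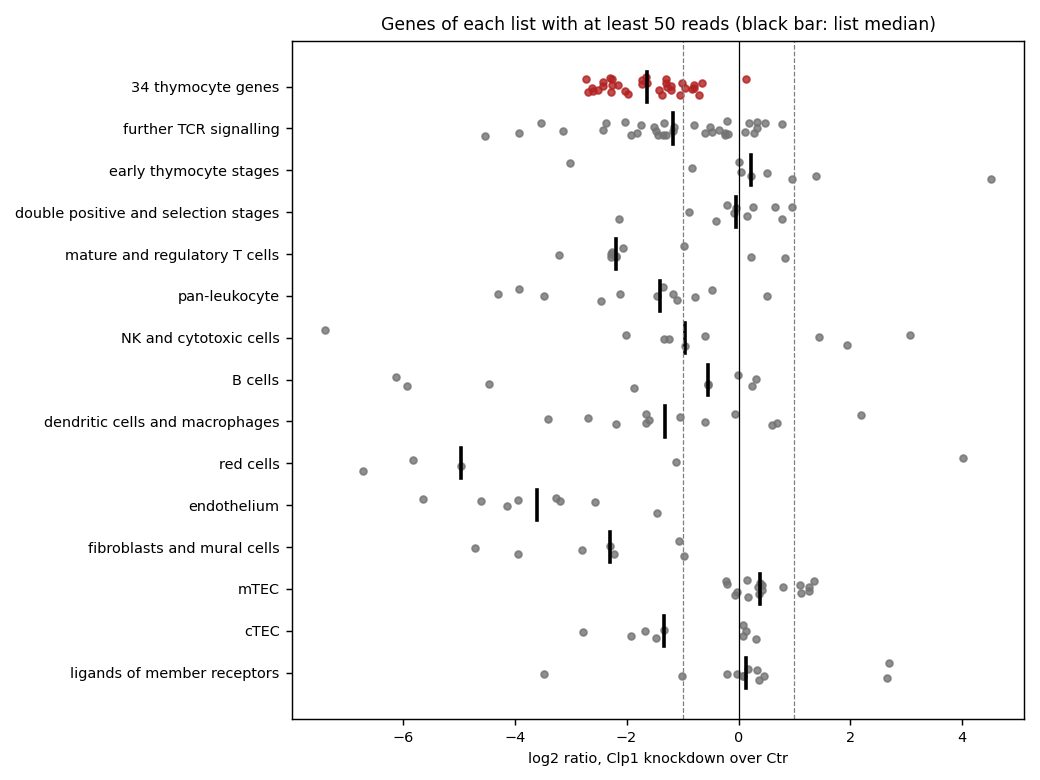
Log2 ratio of Clp1 knockdown over Ctr for every gene with at least 50 reads in each list (points, scattered vertically for visibility; black bars, list medians; dashed lines, 2-fold). The 34 thymocyte genes (red, top) have a median of -1.64, between those of the pan-leukocyte list at -1.41 and the mature T cell list at -2.19, while the mTEC list has a median of 0.39.

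Ligands that thymic stromal and presenting cells offer to receptors among the 34 genes were also looked up. Over 12 such genes the median was 0.13. Of the 12, 2 were called lower, against 18.6% of all genes, and 2 higher, against 19.0%, so these counts were near those of all genes. Alcam, the ligand of CD6, had 3274 reads in Clp1 knockdown and 392 in Ctr (2.68, 2.53 to 2.84). As counted, the Alcam ratio was 7.46 in the exons before the last and 2.53 in the last exon. Reads and intervals of these parts are not given, so how far the 7.46 rests on few Ctr reads is not shown. Cd6 itself had -2.68. Ccl21a, a ligand of CCR7, had 26580 in Clp1 knockdown and 3269 in Ctr (2.64, 2.59 to 2.70), though its near-identical copies can share reads, and Ccr7 had -1.37. Ccl19, the other ligand of CCR7, had 3649 reads in Clp1 knockdown and 2231 in Ctr (0.33, 0.25 to 0.41) and was not called. Cd48, the mouse ligand of CD2, had 80 in Clp1 knockdown and 687 in Ctr (-3.47, -3.83 to -3.15), and it is also a leukocyte gene. For CD28, Cd86 had 729 reads in Clp1 knockdown and 1130 in Ctr (-1.01, -1.15 to -0.88) and Cd80 had 1527 in Clp1 knockdown and 916 in Ctr (0.36, 0.24 to 0.48). Ccl25, the ligand of CCR9, stood at 0.08 and Cd70, the ligand of CD27, at 0.46. The MHC genes bound by the coreceptors ranged from -0.21 for H2-Aa to 0.17 for H2-K1, whose close relative H2-D1 may share reads with it.

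To see whether the ratios held along the transcripts, reads of the exons before the last (without the 5'UTR) were compared with those of the last exon. Both parts were counted for 32 of the 34 genes, as Rag1 and Rag2 had no such earlier exon. Of the 32 genes, 28 had at least 50 reads over both libraries in each part. Of these, 26 had both ratios below 0, which was not counted over all genes. The median ratio was -1.70 for the earlier exons and -1.44 for the last exon. The ratios of both parts differed by at least 2-fold, with an interval that left out 0, in 6 of the 28 genes, against 16.1% of all 11350 genes that could be compared.

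Cd4 and Zap70 had parts of opposite sign, although the last-exon interval of Zap70 held 0. In Cd4 the earlier exons had 169 reads in Clp1 knockdown and 34 in Ctr (1.92, 1.40 to 2.51), whereas the last exon had 287 in Clp1 knockdown and 273 in Ctr (-0.31, -0.55 to -0.06). The Cd4 ratio near 0 over the whole transcript was therefore made of a higher and a slightly lower part. In Zap70 the earlier exons had 6 reads in Clp1 knockdown and 52 in Ctr (-3.38, -5.00 to -2.28), and the last exon 50 in Clp1 knockdown and 32 in Ctr (0.26, -0.40 to 0.95). The last exon thus held 89.3% of the divided Zap70 reads in Clp1 knockdown and 38.1% in Ctr. Thy1 had 34 reads in Clp1 knockdown and 184 in Ctr in earlier exons (-2.79, -3.39 to -2.28) and 145 in Clp1 knockdown and 271 in Ctr in the last (-1.28, -1.58 to -0.98). Arpp21 had 120 in Clp1 knockdown and 454 in Ctr in earlier exons (-2.29, -2.60 to -2.005) and 45 in Clp1 knockdown and 57 in Ctr in the last (-0.71, -1.32 to -0.13). Lef1 and Cd2 went the other way, with the lower ratio in the last exon. Lef1 had 131 reads in Clp1 knockdown and 213 in Ctr in earlier exons (-1.08, -1.40 to -0.76) and 87 in Clp1 knockdown and 290 in Ctr in the last (-2.11, -2.48 to -1.77). Cd2 had 71 in Clp1 knockdown and 278 in Ctr in earlier exons (-2.34, -2.74 to -1.97) and 16 in Clp1 knockdown and 151 in Ctr in the last (-3.57, -4.46 to -2.87).

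**Figure D4:**
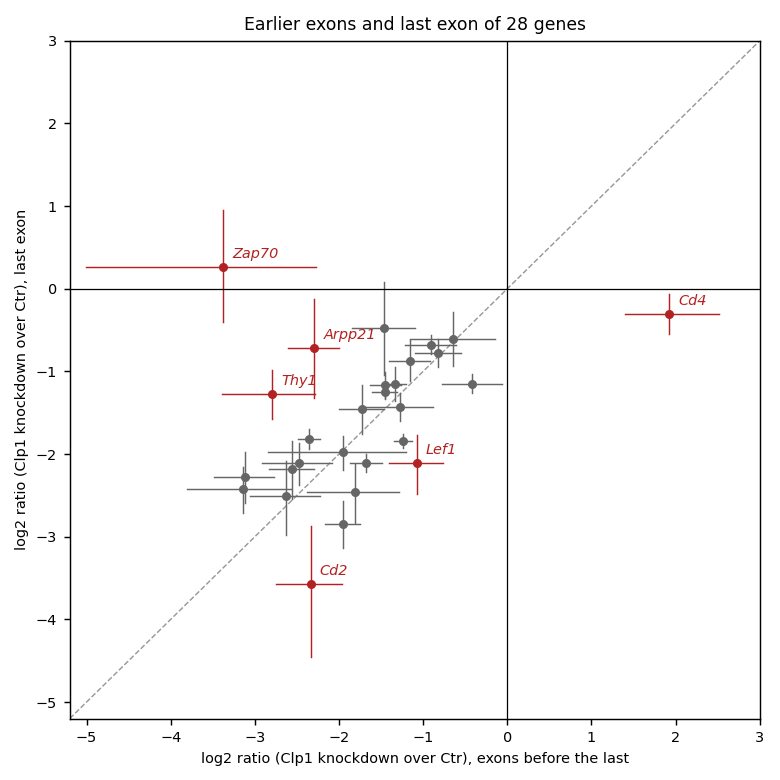
Log2 ratio of Clp1 knockdown over Ctr in the last exon (vertical) against the exons before it (horizontal) for the 28 genes with at least 50 reads in each part, with 95% counting intervals and the line of equality. The 6 genes whose parts differ 2-fold are named in red, and Cd4 at 1.92 and -0.31 and Zap70 at -3.38 and 0.26 lie on opposite sides of 0.

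Of the 4 genes left out of this comparison for few early reads, Ccr7 and Ccr9 had 0 reads before the last exon in both libraries, where the counted stretch is only 60 and 21 bases long. Trat1 had 19 reads in Clp1 knockdown and 9 in Ctr in its earlier exons, and 48 in Clp1 knockdown and 83 in Ctr in its last exon (-1.16, -1.71 to -0.64). Ptcra had 14 in Clp1 knockdown and 11 in Ctr in its earlier exons and 38 in Clp1 knockdown and 61 in Ctr in its last (-1.05, -1.69 to -0.45). For both of these genes the last exon alone thus stood past 2-fold, where the whole transcript did not. Of the 34 genes, 14 had more than 1 transcript. Transcripts of 1 gene share reads, and their ratios lay within 0.13 of each other except in Cd247 (-2.51 to -2.03 over 4 transcripts) and Arpp21 (-3.08 to -2.05 over 9).

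Clp1 acts in cleavage before poly(A) addition, and the study's measure of it is the d3'UTR ratio, the read density beyond the most proximal annotated poly(A) site over that of the last exon before it. Such a distal region was annotated for 15 of the 34 genes, of which 13 had at least 10 last-exon reads in each library and at least 1 distal read. In Cd247 and Arpp21 no distal read was counted in either library. The d3'UTR ratio was called 2-fold higher in 4 of the 13 genes, against 15.3% of 5050 genes, and 2-fold lower in 1, against 13.8%. The median log2 change was 0.43 for the 13 genes and 0.03 for all genes. Changes went both ways in the 13 genes, with 7 above 0 and 6 below. They did so too in the 5050 genes, with 2624 above 0 and 2425 below. Of the 13 genes, 6 had an interval above 0 and 4 an interval below. Such intervals were not counted over all genes.

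Skap1 had the largest change, which rests on few distal reads. It had 10 distal reads in Clp1 knockdown and 2 in Ctr, with 43 reads upstream in Clp1 knockdown and 232 in Ctr, so that its d3'UTR ratio was 0.299 in Clp1 knockdown and 0.011 in Ctr (log2 change 4.49, 2.43 to 8.01). Themis had 144 distal reads in Clp1 knockdown and 106 in Ctr, and a d3'UTR ratio of 1.09 in Clp1 knockdown and 0.319 in Ctr (1.77, 1.24 to 2.31). In Themis the number of distal reads was thus higher in Clp1 knockdown while the upstream reads were 87 in Clp1 knockdown and 219 in Ctr. Satb1 had 192 distal reads in Clp1 knockdown and 275 in Ctr and d3'UTR ratios of 0.0805 in Clp1 knockdown and 0.039 in Ctr (1.05, 0.76 to 1.33). Lcp2 had 19 distal reads in Clp1 knockdown and 10 in Ctr (1.23, 0.03 to 2.58), a change that rests on few reads. Cd3d (0.83, 0.06 to 1.58) and Cd3g (0.75, 0.01 to 1.48) also had intervals above 0, which were below the 2-fold threshold. Cd8a was the gene called lower, with 16 distal reads in Clp1 knockdown and 68 in Ctr and d3'UTR ratios of 0.0166 in Clp1 knockdown and 0.0581 in Ctr (-1.77, -2.71 to -0.98). The factors Bcl11b (-0.95, -1.24 to -0.67), Ikzf1 (-0.94, -1.26 to -0.62) and Ets1 (-0.72, -0.96 to -0.48) had intervals below 0 and were not called. Thy1 was unlike the rest, with more distal than upstream reads in both libraries (138 distal and 7 upstream in Clp1 knockdown, 258 and 13 in Ctr), and its ratio of 15.85 in Clp1 knockdown and 15.95 in Ctr gave a change of -0.05 (-1.48 to 1.59). Cd8b1 at 0.43 (-0.08 to 0.92) had an interval that held 0. Ptprc had 0 distal reads in Clp1 knockdown and 2 in Ctr, too few to compare, though it is counted among the 13 genes and those below 0.

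**Figure D5:**
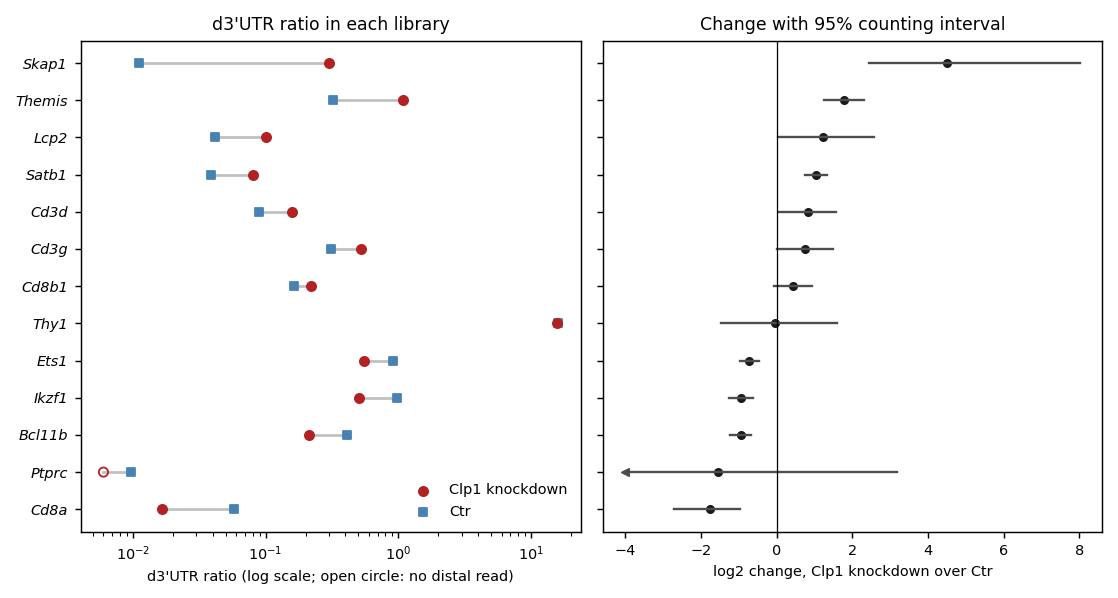
The d3'UTR ratio of the 13 genes in Clp1 knockdown (red circles) and Ctr (blue squares) on a log axis (left; the open circle of Ptprc stands for no distal read) and its log2 change with the 95% counting interval (right; the arrow marks an interval without a lower end). Skap1, Themis, Lcp2 and Satb1 lie past 2-fold higher and Cd8a past 2-fold lower.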

How the data were processed

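Sorted mTEChi of 1 mouse, with GFP (Clp1 knockdown) or without it (Ctr), gave RNA that was isolated with Trizol and made into poly(A)-selected libraries (Smarter Ultra Low Input and Nextera kits), sequenced single-end. The authors deposited raw counts of reads contained in exons for 30794 RefSeq transcripts, and the same counts for parts of 27567 transcripts with part lengths. Per the submitters' processing notes, Bowtie 1.0.0, the mm9 build, bedtools and DESeq were used. Neither the use of strand nor the removal of duplicates is given in the sources used here. Without strand, an antisense gene that overlaps another shares its reads. A deposited table of normalized means, fold changes and p-values from DESeq on 1 library per group was not used.

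Symbols were matched by RefSeq identifier (29352 transcripts after leaving out 874 repeated entries), and the transcript with the most reads stood for each of 23003 genes. Size factors were medians of ratios, and 0.5 was added for log2 ratios. Intervals of d3'UTR changes are exact conditional intervals of an odds ratio, with 0.5 reads added to each part for the change itself. Python 3.11.15, numpy 2.4.6, pandas 2.3.3 and scipy 1.17.1 were used, and edgeR 4.0.16 in R 4.3.3 gave other scalings. The calls were tested on simulated counts that held counting error only, so this test cannot show how they behave under noise between libraries. Alternatives were the scaling, the read minimum, the threshold, the transcript chosen, the value added, trends with level and GC content, and the part of the transcript used.

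All 34 genes are named. Of each other list, the pair of genes whose intervals lay furthest from 0 in each direction could be named, and some of these are. Krt5, Hes1, Cd24a, Ncr1, Pdgfrb and the remaining ligands were chosen after their values were seen. The genes and lists were chosen with earlier results of these data known, so their direction is not independent evidence. A search of protein sequences for CD3 chain signalling motifs was not run.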

Additional observations from a re-analysis of the deposited data

How the results depend on the processing

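The count of 27 genes called 2-fold lower stayed between 23 and 33 under other scalings, read minimums, transcripts, trends, parts and the 1.5-fold or whole-interval thresholds, and was 13 at 4-fold. No gene was called higher under these alternatives, except 1 (Cd4) with the exons before the last alone, against 16.5% of all genes there. The median ratio was -1.40 with the last exon alone, against -1.64 as reported. It was -1.85 when scaled to the summed reads of 17 mTEC genes, where the median of all genes was -0.21. Most of that sum came from genes of MHC class II presentation. These settings were chosen after seeing the data. The summed log2 ratio of -1.56 was -1.61 without the 7 genes of wider expression. Subtracting the trend with GC content moved 21 of 34 single ratios outside their counting interval, by -0.55 to 0.57, and left 33 below 0. The count of 27 was the same there, but 26 of the genes were shared, with Cd5 lost (-0.90) and Trat1 gained (-1.38). Upper quartile scaling and the trend with mean expression gave 26, without Themis. The median d3'UTR change was 0.59 with no reads added and 0.43 with at least 30 last-exon reads. No paired analysis was possible because each group has 1 library. The intervals cover counting error of 1 library per group, and for Ptcra, Zap70 and Trat1 the reads are few.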
